A study of Mus musculus with 6 samples.

Results

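Small nucleolar RNAs and small Cajal body RNAs were examined in 2 mouse cell lines as 114 of the 23284 rows of the deposited count table. They were chosen by name alone, as every row whose symbol starts with Snord, Snora or Scarna followed by a digit, and comprised 69 Snord, 36 Snora and 9 Scarna rows. Counts rather than length-scaled values were used for the comparison, because these genes are short. The median annotated length was 83.5 bases.

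The RNA-seq series was made to accompany a study of chromatin folding around Pax6, a transcription factor gene of eye and pancreas development. MV+ cells, a lens epithelial line that the study describes as derived from a wildtype C57BL6 mouse, were compared with RAG cells, a renal adenocarcinoma line from the BALB/c strain. Each line was represented by 3 libraries from separate culture flasks, so that line, tissue of origin and strain cannot be told apart and the error measures cultures of 1 line each. No agent, transgene or induced mutation is named for either line, and both were grown in the same medium. Pax6 itself had 1136, 1159 and 1316 counts in MV+ and only 0, 0 and 4 in RAG.

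Libraries held between 17413045 and 43168532 counts assigned to genes, and every MV+ library was smaller than every RAG library. Of the defining markers of lens epithelium, Foxe3 was at 0 in both lines, and Prox1, Six3 and Sox2 were at 0 in RAG. Maf and the crystallin gene Cryab, on the same list, were lower in MV+ (log2 fold changes -1.53 and -1.08), and the summed lens markers, mostly Vim, overlapped at 3536 to 3674 CPM (counts scaled to a library of 1000000) in MV+ and 3451 to 3895 in RAG. Of the renal markers, Slc34a1 and Umod were at 0 in both lines, Pax2 in MV+ and Epcam in RAG, while the summed level of the 12 renal markers was 49.2 to 53.8 CPM in MV+ and 720.3 to 787 in RAG. Nearly all of the MV+ sum was Lrp2, at 53.6, 48.9 and 52.3 CPM, which went against the label and was higher in MV+ (log2 fold change 9.43). For pancreatic islet genes, which fit neither line, 6 of 9 markers had counts in MV+ and 2 in RAG.

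Small nucleolar RNAs guide the chemical modification of ribosomal and spliceosomal RNA by base pairing with the target. Box C/D RNAs (Snord) carry the motifs called C and D near their ends and direct ribose methylation by the methyltransferase fibrillarin. Box H/ACA RNAs (Snora) fold into hairpins, end in an ACA motif and direct pseudouridylation by dyskerin. Small Cajal body RNAs (Scarna) belong to either class or carry both, and are retained in Cajal bodies, where they mainly guide modification of spliceosomal RNAs. In mammals most are cut from spliced introns of host genes, many of which encode ribosomal proteins or produce long non-coding RNAs.

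The sequences below, read from the mm9 genome 5′ to 3′, are shown for box C/D members described in detail below. They are the most counted ones, a related pair higher in MV+, a member of a host with several members, and the member with the largest decrease. Capitals mark the first TGATGA within the first 30 bases, where there was one, and the last CTGA within the last 25. TGATGA and CTGA match the usual forms of boxes C and D. A match here is a description of the letters.
Snord17 (chr2:144091715-144091952, minus strand): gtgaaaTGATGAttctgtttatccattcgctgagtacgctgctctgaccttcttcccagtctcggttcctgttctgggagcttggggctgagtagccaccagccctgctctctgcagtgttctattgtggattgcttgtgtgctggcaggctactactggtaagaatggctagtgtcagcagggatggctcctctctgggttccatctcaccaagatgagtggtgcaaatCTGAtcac
Snord22 (chr19:8800356-8800481, plus strand): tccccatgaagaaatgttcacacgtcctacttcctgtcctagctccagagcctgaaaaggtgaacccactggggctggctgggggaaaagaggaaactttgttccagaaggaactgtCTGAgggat
Snord15a (chr7:106631295-106631442, minus strand): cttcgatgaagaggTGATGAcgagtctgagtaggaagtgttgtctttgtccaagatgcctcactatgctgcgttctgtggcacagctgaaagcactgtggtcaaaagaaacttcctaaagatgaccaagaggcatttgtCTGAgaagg
Snord15b (chr7:106628073-106628217, minus strand): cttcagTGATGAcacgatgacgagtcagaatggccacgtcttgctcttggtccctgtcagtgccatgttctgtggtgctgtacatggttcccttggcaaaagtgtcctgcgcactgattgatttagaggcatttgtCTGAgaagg
Snord49a (chr11:62416952-62417023, plus strand): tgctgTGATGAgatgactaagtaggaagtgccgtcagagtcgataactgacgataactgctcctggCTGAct
Snord49b (chr11:62416581-62416652, plus strand): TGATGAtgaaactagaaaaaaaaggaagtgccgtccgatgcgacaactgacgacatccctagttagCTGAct
Snord32a (chr7:52382752-52382834, minus strand): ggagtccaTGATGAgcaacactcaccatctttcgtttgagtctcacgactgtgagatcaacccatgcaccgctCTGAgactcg
Snord69 (chr14:31827473-31827552, minus strand): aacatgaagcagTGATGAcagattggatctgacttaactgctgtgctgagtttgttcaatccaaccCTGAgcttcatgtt

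Snord15a and Snord15b, which lie in the same host gene, ended in the same 21 bases, agaggcatttgtctgagaagg, and were identical at 66.0% of aligned positions. Snord49a and Snord49b, also neighbours in a single host, were identical at 69.2% and shared a longest run of 13 bases, aggaagtgccgtc. No shared run reached the read length of 50 nt, so that reads from these sequences could be assigned to one or the other.

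The called H/ACA members that rose and fell most, and Snora61 as an example of a counted interval that holds only part of its RNA, had the following sequences. Capitals mark the last ACA within the last 10 bases of Snora47 and Snora69, and in Snora61 the bases that the deposited interval covered.
Snora47 (chr13:96100555-96100692, plus strand): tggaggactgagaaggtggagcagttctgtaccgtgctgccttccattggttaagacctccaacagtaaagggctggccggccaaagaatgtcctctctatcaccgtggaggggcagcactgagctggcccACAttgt
Snora69 (chrX:34622907-34623037, minus strand): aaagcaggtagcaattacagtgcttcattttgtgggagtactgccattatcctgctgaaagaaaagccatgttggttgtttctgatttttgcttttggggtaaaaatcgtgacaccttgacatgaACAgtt
Snora61 (chr4:131866155-131866284, plus strand): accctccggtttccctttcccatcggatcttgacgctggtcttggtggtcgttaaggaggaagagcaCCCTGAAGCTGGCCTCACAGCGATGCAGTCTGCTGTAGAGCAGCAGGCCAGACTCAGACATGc

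The motifs that define the families were found towards the ends of the deposited intervals. CTGA occurred on the sense strand in the last 20 bases of 64 of 65 Snord intervals (98.5%), against 6 of 65 windows of the same length placed 200 bases downstream (9.23%). TGATGA occurred in the first 20 bases of 18 of 65 deposited Snord intervals (27.7%) and of 41 of 64 intervals that the GENCODE M1 annotation of the same genome gives for these RNAs (64.1%), and in 0 of 65 downstream windows. ACA occurred in the last 10 bases of 32 of 34 Snora intervals (94.1%), against 7 of 34 downstream windows (20.6%). These counts leave out members on chromosome 18 and members with more than 1 interval.

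For many members part of the RNA lay outside what was counted. Of 107 members with an overlapping small RNA in GENCODE M1, the GENCODE interval was longer for 89, with a median excess of 12 bases over all 107. It was longer by more than 50 bases for Snora20, Scarna2, Snora61 and Scarna10. A read was counted where any base of it overlapped an interval, so that reads longer than the 7 members shorter than 50 bases could still be counted. Reads of an unspliced host transcript over an interval were counted with those of the excised RNA, and the counts do not separate them.

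Of the 114 members, 103 had a count in some library. Of the 11 without a count, 9 lay wholly within exons of another counted row, and reads shared between rows were not counted. They were Snord7, Snord1a, Snora24, Snord45c and Snora26, inside annotated exons of their host transcripts, Snord93 inside the row Mir3096b, and Snord116, Snord116l1 and Snord116l2, whose intervals are identical. A zero for these rows is thus no measurement of the RNA. Snora35 and Snord123 were also at 0 in every library. A further 6 members, Scarna3a, Scarna3b, Scarna13, Snora36b, Snora47 and Snord33, shared some of their bases with a microRNA row, and reads touching those bases were lost from them.

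The summed share of the 3 families was uneven across replicates. Per 1000000 assigned counts, Snord rows took 689, 1071 and 1538 in replicates 1, 2 and 3 of MV+ and 457, 535 and 794 in those of RAG. In each line the lowest value was replicate 1 and the highest replicate 3, and MV+ replicate 1 lay below RAG replicate 3. Snora rows took 463, 552 and 687 in MV+ and 351, 292 and 570 in RAG, and Scarna rows 215, 221 and 237 in MV+ and 173, 165 and 242 in RAG. The lines thus overlapped in every family, and no test was made on these sums. In bulk libraries fewer cells with an RNA and less RNA per cell cannot be told apart. Rn45s, the ribosomal RNA precursor, moved the other way, at 17.0%, 14.1% and 13.2% of counts in MV+ and 20.1%, 17.7% and 12.4% in RAG. The summed islet markers were at 10.2, 5.95 and 1.71 CPM in the MV+ replicates and at most 0.0464 in RAG. The part of either in the snoRNA shares was not tested.

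**Figure D1:**
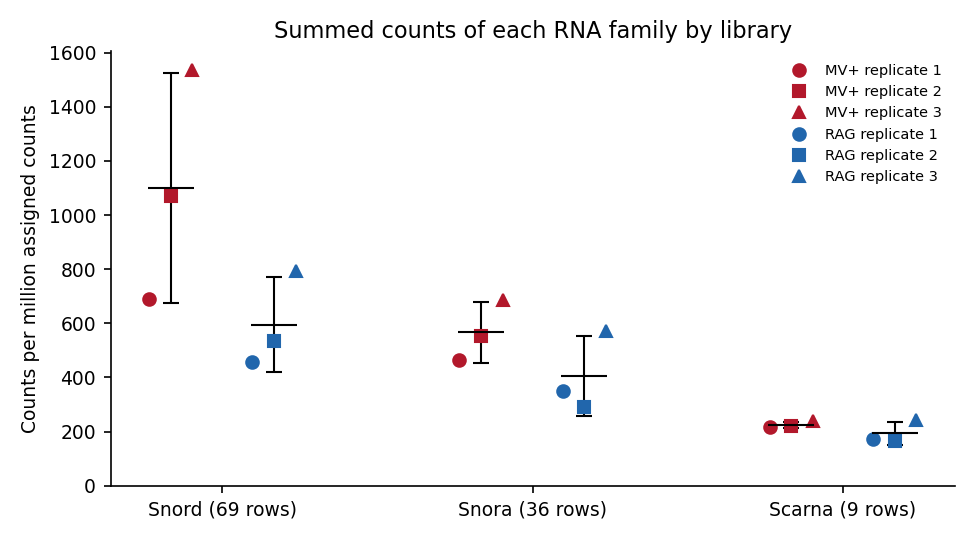
Summed counts of Snord, Snora and Scarna rows, per 1000000 assigned counts, in each library, with MV+ in red and RAG in blue and a marker shape for each replicate. Horizontal bars show the mean and error bars the SD of 3 libraries. Replicate 3 was the highest library of its line in each family, and Snord shares spread from 689 to 1538 in MV+.

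A few members carried most of the signal. The 10 with the most counts, Snord17, Snora74a, Snord22, Snord15b, Snord15a, Scarna13, Scarna6, Snora43, Scarna10 and Snora78, held 78.3% of all member counts. Of these, 9 were longer than the median member. Across members with a count, the Spearman correlation of summed count with annotated length was 0.46, and 0.27 after scaling to length as FPKM (103 members, given as a description).

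Snord17, a box C/D RNA in an intron of the sorting nexin gene Snx5, was the most counted member, at 266, 449 and 512 CPM in MV+ and 217, 284 and 248 in RAG (CPM here is scaled to the TMM-normalised library size). The libraries overlapped, and the difference was not called (log2 fold change 0.71 ± 0.29 SE, edgeR adjusted p = 0.0767), but passed in the fit with the replicate number as a block (adjusted p = 0.0392). Snord22, in the non-coding host Snhg1, was at 133, 178 and 367 CPM in MV+ and 71.8, 78.6 and 149 in RAG. Replicate 3 was well above the others in each line, and the log2 fold change of 1.17 ± 0.55 was not called without the block (adjusted p = 0.117) and was called with it (adjusted p = 9.34e-08).

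Snord15a and Snord15b, both inside the ribosomal protein gene Rps3, also overlapped between the lines. Snord15b was at 82.9, 148 and 236 CPM in MV+ and 65.7, 73.4 and 168 in RAG, and its difference of 0.61 ± 0.60 on the log2 scale was called only with the block (adjusted p = 0.4 without and 0.0202 with). Snord15a was at 92.9, 119 and 174 CPM in MV+ and 89.0, 73.4 and 147 in RAG, and was not called in either fit (adjusted p = 0.501 and 0.0721). Snora74a, in Snhg4, was at 176, 229 and 239 CPM in MV+ and 160.1, 132 and 189 in RAG, with a log2 fold change of 0.42 ± 0.17 just short of the threshold (adjusted p = 0.0571). It was called in 7 of 14 alternatives.

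Snora78, in Snhg9, was at 41.4, 28.7 and 36.8 CPM in MV+ and 24.2, 16.3 and 39.5 in RAG, and the lines overlapped (log2 fold change 0.40 ± 0.39, adjusted p = 0.386, and 0.80 and called without RAG replicate 3). Snora43, in Snhg7, was at 43.9, 40.6 and 45.9 CPM in MV+ and 58.0, 41.0 and 84.9 in RAG, a wide spread in RAG that left its log2 fold change of -0.50 ± 0.30 uncalled (adjusted p = 0.185). Without RAG replicate 2 it was called, at -0.72.

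Of the 114 members, 89 passed the filter on low counts and were tested. In the edgeR quasi-likelihood test 28 were higher and 4 lower in MV+ (Benjamini-Hochberg adjusted p under 0.05), against a background of 40.4% higher and 38.9% lower over all 12965 genes that passed the filter. In either direction 36.0% of tested members were called, against 79.3% of all genes. Past a 2-fold change, 15 members were higher and 2 lower, where the background was 18.7% higher and 16.4% lower. The libraries of the lines did not overlap for 28 members higher and 4 lower, against 40.9% and 39.7% of all genes. Members had far fewer counts than other genes, with a median sum over 6 libraries of 329 against 4395, and a median SE of the log2 fold change of 0.288 against 0.0945.

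Most tested members had a log2 fold change above 0, although the share called higher (28 of 89) was below the 40.4% of all genes. Of the 89 tested members 72 had a log2 fold change above 0, and the median was 0.36, where the median of all genes tested was 0.03. The share of all genes above 0 was not counted. By family, 17 of 51 Snord, 6 of 31 Snora and 5 of 7 Scarna members were higher and 2, 1 and 1 lower. With the replicate block 21 Snord, 11 Snora and 5 Scarna members were higher, 37 in all, and the number lower stayed at 4. Over all genes the share called in either direction was 83% with the block and 79.3% without it. Leaving out single libraries gave 20 to 43 members higher, and the highest number came without RAG replicate 3.

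The 10 members with the largest called increases in MV+ were all box C/D RNAs apart from Snora69. Snord49b, Snord49a and Snord65 lie within 1 host, the non-coding gene 2410006H16Rik. Snord49b was at 4.84, 7.47 and 7.94 CPM in MV+ and 1.88, 2.65 and 2.34 in RAG, 2.98-fold higher with no overlap (log2 fold change 1.58 ± 0.19, adjusted p = 2.36e-06). Snord49a was at 4.06, 3.62 and 4.19 CPM in MV+ and 1.68, 1.30 and 1.67 in RAG, 2.52-fold higher (adjusted p = 2.6e-06). Snord65 was at 1.72, 3.05 and 3.21 CPM in MV+ and 0.725, 1.23 and 1.35 in RAG, 2.42-fold higher (adjusted p = 0.000471). All 3 thus rose together, and the host was higher by 0.78 ± 0.08 on the log2 scale.

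Snora69, an H/ACA RNA of the ribosomal protein gene Rpl39, had 18, 45 and 63 counts in MV+ and 17, 12 and 40 in RAG, or 1.00, 2.14 and 2.56 CPM against 0.560, 0.460 and 0.929. It was 2.85-fold higher (log2 fold change 1.51 ± 0.34, adjusted p = 0.00125), although MV+ replicate 1 lay close to RAG replicate 3. Snord96a and Snord95 lie in Gnb2l1, which encodes the ribosomal scaffold protein RACK1. Snord96a was at 4.89, 5.33 and 6.55 CPM in MV+ and 2.08, 2.72 and 2.67 in RAG (2.25-fold, adjusted p = 6.75e-06). Snord95 was at 1.00, 1.33 and 1.38 CPM in MV+ and 0.560, 0.269 and 0.720 in RAG (2.29-fold, adjusted p = 0.00211). Neither overlapped between the lines.

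The remaining members of this group had few counts. Snord45b, in the prenyltransferase subunit gene Rabggtb, had 22, 21 and 32 counts in MV+ and 12, 18 and 15 in the deeper RAG libraries (2.57-fold in CPM, adjusted p = 0.000605). Snord42b, in Rpl23a, had 45, 30 and 64 counts in MV+ and 30, 16 and 40 in RAG (2.53-fold, adjusted p = 0.000218). Snord1c, in 1810032O08Rik (Snhg16), had 12, 13 and 10 counts in MV+ and 7, 5 and 11 in RAG (2.37-fold, adjusted p = 0.006), and this call did not pass in DESeq2. Snord32a, in Rpl13a, is described with its host below. A further 13 members were called higher with log2 fold changes between 0.34 and 0.93.

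Lower in MV+ were 2 box C/D RNAs of a single host, an H/ACA RNA and a Cajal body RNA. Snora47, in the zinc finger gene Zbed3, had 3, 8 and 9 counts in MV+ and 36, 22 and 73 in RAG, or 0.167, 0.381 and 0.366 CPM against 1.19, 0.844 and 1.69. It was 4.07-fold lower (log2 fold change -2.02 ± 0.37, adjusted p = 0.000121), and 73 of its 126 bases were shared with the row Mir1940. Snord69, in Gnl3, which encodes the nucleolar GTPase nucleostemin, was at 1.00, 1.24 and 1.34 CPM in MV+ and 2.14, 3.61 and 3.23 in RAG, 2.47-fold lower (log2 fold change -1.30 ± 0.23, adjusted p = 8.67e-05). Snord19, of the same host, fell by less than 2-fold (log2 fold change -0.96 ± 0.25). Both host genes were lower too, Zbed3 by a log2 fold change of -1.26 ± 0.09 and Gnl3 by -1.80 ± 0.07.

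Among the Cajal body RNAs, 5 were higher, 1 was lower and 1 was not called. Scarna13, inside Snhg10, was the most counted, at 42.4, 43.2 and 47.2 CPM in MV+ and 79.0, 71.2 and 103 in RAG. It was 1.91-fold lower in MV+ with no overlap (log2 fold change -0.93 ± 0.13, adjusted p = 5.7e-05). Scarna6, in the autophagy gene Atg16l1, was at 56.0, 53.6 and 55.2 CPM in MV+ and 59.1, 54.6 and 64.0 in RAG, overlapping and not called (adjusted p = 0.185). It was among the steadiest members, with an SE of 0.07.

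Scarna10, in the condensin subunit gene Ncapd2, was at 74.5, 69.9 and 70.3 CPM in MV+ and 38.6, 35.8 and 50.0 in RAG, 1.72-fold higher (log2 fold change 0.78 ± 0.11, adjusted p = 1.61e-05). Scarna2, which the host rule placed in no other gene, was at 25.4, 31.2 and 33.5 CPM in MV+ and 9.23, 12.7 and 17.9 in RAG, 2.24-fold higher (adjusted p = 0.008). Both were counted over a short stretch, 71 bases of a GENCODE length of 325 for Scarna10 and 61 of 414 for Scarna2. The lines did not overlap for either.

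Scarna9, in 5830418K08Rik (Cep295), was at 6.34, 7.18 and 7.08 CPM in MV+ and 4.94, 4.14 and 5.64 in RAG, 1.39-fold higher (adjusted p = 0.00492). The remaining 2 had few counts. Scarna3a, in Rfwd2, which encodes the ubiquitin ligase COP1, had 25, 16 and 28 counts in MV+ and 22, 4 and 27 in RAG (log2 fold change 1.04 ± 0.38, adjusted p = 0.0239). Scarna17 had 35, 17 and 20 counts in MV+ and 19, 6 and 27 in RAG (log2 fold change 1.14 ± 0.41, adjusted p = 0.0226). Both calls were lost when RAG replicate 2 or MV+ replicate 1 was left out, and that of Scarna3a also without MV+ replicate 3.

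**Figure D2:**
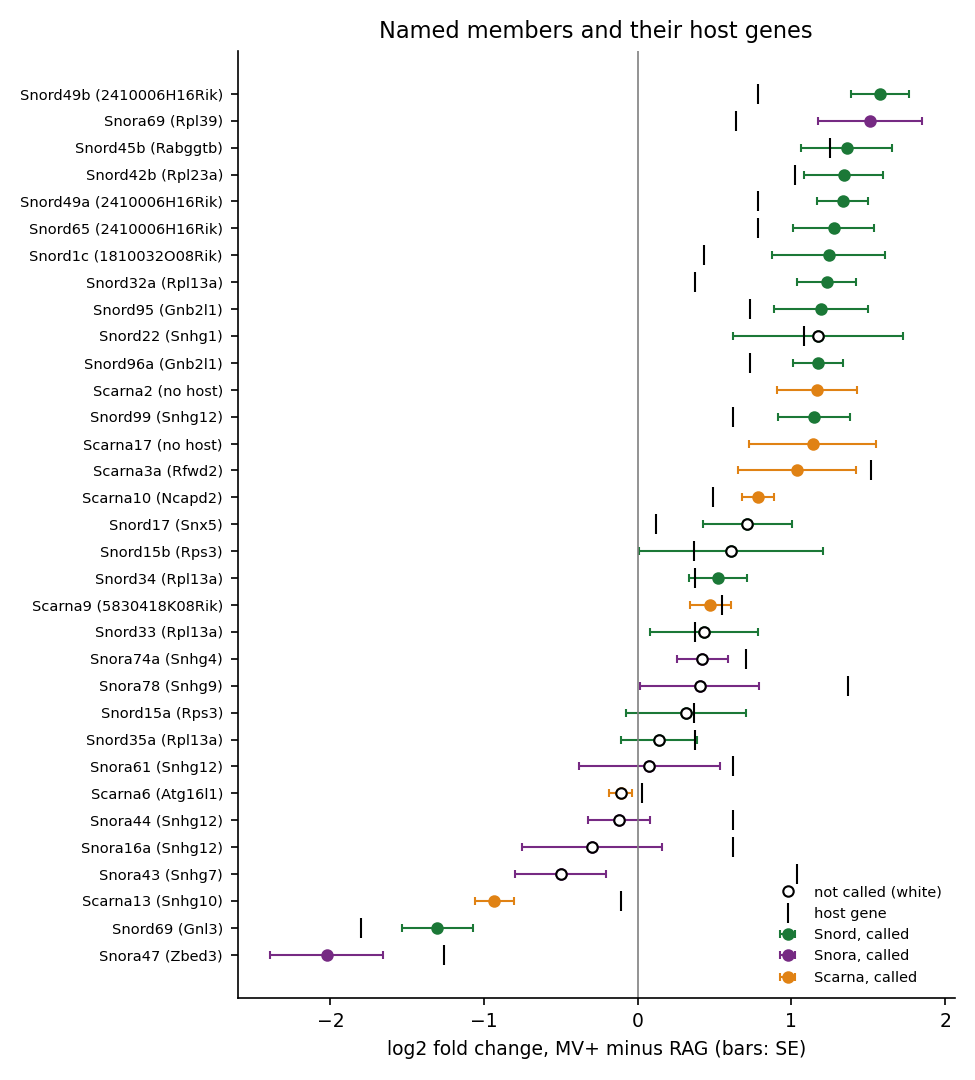
log2 fold change (MV+ minus RAG) of each named member, with bars for the SE derived from the edgeR test. Colours mark the families, white points members not called and a black tick the host gene named in brackets. Snora47 lies lowest at -2.02 and Snord49b highest at 1.58, and Snora43 and Scarna13 lie well to the left of their hosts.

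The tested members that were not called numbered 57, of which 44 had a log2 fold change above 0. Their log2 fold changes ran from -0.72 for Snord53 to 1.69 for Snora64. A further 14 members had a count but were not tested, with 2 to 65 counts summed over all libraries. Among these Snord64, a box C/D RNA of the imprinted Prader-Willi region, had 5, 3 and 1 counts in MV+ and 0 in each RAG library. A count of 0 allowed up to 3 counts in a library. With so few counts Snord64 did not pass the filter, and a difference between the lines was not tested.

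Host genes were assigned as the shortest gene on the same strand that contained the whole member, which placed 103 members inside 76 hosts. Of the hosts, 49 were higher and 10 lower in MV+, 15 were not called and 2 were not tested, where 40.4% of all genes tested were higher and 38.9% lower. The same shares are the background for each class of host. Hosts that encode ribosomal proteins carried 30 members in 21 genes, of which 10 were higher and 0 lower of 29 tested, with the same numbers in DESeq2 and at an unadjusted p under 0.05. Non-coding hosts carried 25 members in 17 genes, with 7 higher and 1 lower of 19 tested. Hosts encoding translation factors carried 6 members, with 1 higher of 6 tested, and other protein-coding hosts 42, with 7 higher and 3 lower of 29 tested. Of the 11 members with no host by this rule, 6 were tested and 3 were higher.

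Most called members with a tested host had a host called in the same direction. Both were tested for 83 members, in 61 hosts. Of the members higher in MV+, 22 had a host that was higher, 1 (Snora23) had a host that was lower, and 2 (Snord12 and Snora3) had a host that was not called. Of the members lower in MV+, 3 had a host that was lower, 1 (Scarna13) had a host that was not called, and 0 had a host that was higher. Hosts were mostly higher whatever the member did. Of the members not called, 39 had a host that was higher, 5 a host that was lower and 10 a host that was not called. A host that is higher would thus be frequent for any set of these members. Across the 83 pairs Pearson's r of the log2 fold changes was 0.51 and Spearman's rho 0.39, as a description, since pairs share hosts and libraries. Without Rps2 and Rps3a, r was 0.58 and rho 0.38 over 81 pairs. These hosts were chosen after their values were seen, as their log2 fold changes of 5.42 and -2.85 lay far from the others. Mean CPM of Rps2 was 267 in MV+ and 6.21 in RAG, and that of Rps3a 9.41 and 67.9. Reads with several alignments were left out of these counts, and the part of this in the host changes was not tested. Over the 83 pairs the median difference of member minus host was 0.04, and turned negative without MV+ replicate 3 (-0.18) or RAG replicate 1 (-0.13).

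**Figure D3:**
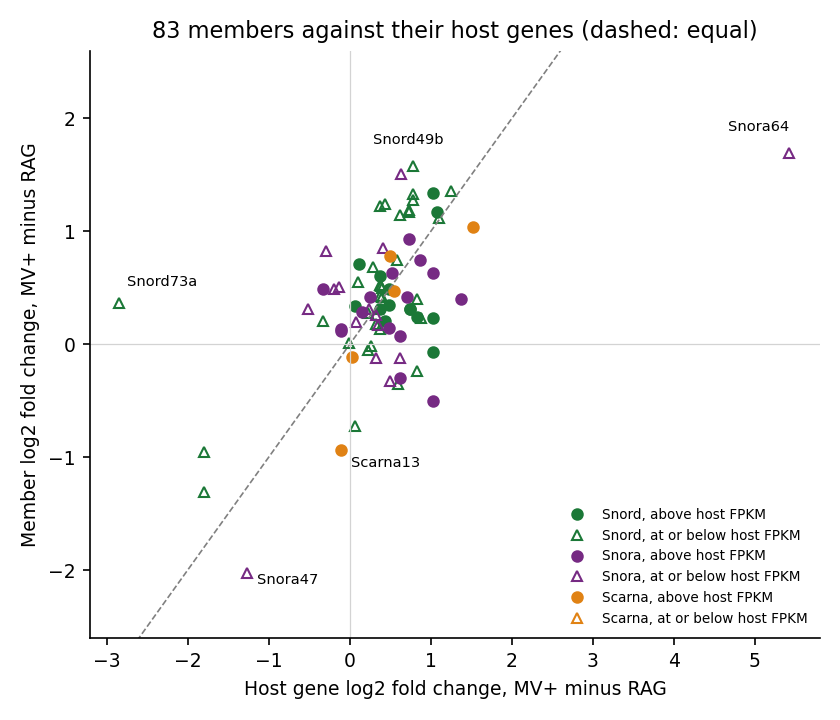
log2 fold change of each member (vertical axis) against that of its host gene (horizontal axis), MV+ minus RAG in both, for 83 pairs. Filled circles are members with an FPKM above the host, open triangles those at or below it, colours are families and the dashed line marks equal change. Snora64 and Snord73a lie far to the sides, at the log2 fold changes of their hosts Rps2 and Rps3a.

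Levels of members relative to their hosts spanned a wide range. On the length-scaled FPKM values, 34 of 95 members with a host and a count exceeded their host. The median ratio of member to host FPKM was 0.23 for Snord, 0.80 for Snora and 11.8 for Scarna, the last over 7 members and equal to the value of Scarna10. FPKM divides by annotated intervals that are short against the reads and, for Scarna10, hold 71 of 325 bases, so that these ratios are uncertain. Host values are uncertain too, since reads with several alignments were left out. Mean FPKM over all libraries was 5.90 for Rpl23a and 10.1 for Rpl3, but 646 for Rpl4. The part of the left-out reads in these ratios was not tested. Members at or above 10 times the host were Scarna6, Scarna13, Snora74a, Snord22, Snora43, Snord17, Snora61, Scarna10 and Scarna9. Pearson's r of the log2 fold changes was 0.56 over 49 members at or below the host FPKM and 0.35 over 34 members above it. The difference between these correlations was not tested.

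Individual hosts showed both patterns. Snhg7 was higher in MV+ (log2 fold change 1.03 ± 0.10), while Snora43 inside it was not called and had a log2 fold change of the opposite sign. Counts of Snora43 per count of Snhg7 were 2.46, 2.34 and 2.68 in MV+ and 7.49, 4.93 and 9.05 in RAG, with no overlap. The other member in Snhg7, Snora17, gave 0.657, 0.542 and 0.646 per host count in MV+ and 0.787, 0.516 and 1.05 in RAG, which overlapped. Snhg10 did not pass the test (log2 fold change -0.11 ± 0.16), and counts of Scarna13 per count of Snhg10 were 13.6, 14.9 and 16.3 in MV+ and 22.4, 25.8 and 31.7 in RAG. For Snord22 and Snhg1 the ratio overlapped, at 1.54, 2.03 and 5.21 in MV+ and 1.94, 2.01 and 3.82 in RAG.

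Snhg12 and Rpl13a each held 4 counted members. In Snhg12, a non-coding host that was higher in MV+ (log2 fold change 0.62 ± 0.09), only Snord99 of its 4 members was called. Snord99 was at 1.78, 2.47 and 2.16 CPM in MV+ and 0.692, 1.27 and 0.975 in RAG, 2.22-fold higher (adjusted p = 0.000334). Its H/ACA neighbours overlapped between the lines. Snora61 was at 27.8, 16.5 and 23.1 CPM in MV+ and 21.6, 10.7 and 30.7 in RAG, Snora16a at 13.7, 9.37 and 11.0 in MV+ and 13.2, 6.98 and 20.7 in RAG, and Snora44 at 2.61, 2.95 and 3.34 in MV+ and 2.31, 3.22 and 4.09 in RAG. Their log2 fold changes were 0.08, -0.30 and -0.12, and each changed sign in some alternative. Snora16a was called without RAG replicate 2, at -0.60. Counts of Snord99 per count of Snora44 did not overlap, at 0.681, 0.839 and 0.646 in MV+ and 0.300, 0.393 and 0.239 in RAG. Per count of Snora16a (0.130, 0.264 and 0.196 in MV+, 0.0524, 0.181 and 0.0471 in RAG) and per count of Snora61 (0.0640, 0.150 and 0.0935 in MV+, 0.0321, 0.118 and 0.0318 in RAG) the lines overlapped.

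In Rpl13a, which encodes a ribosomal protein of the large subunit and was higher by 0.37 ± 0.07 on the log2 scale, all 4 members are box C/D RNAs. Snord32a was at 3.34, 3.24 and 2.73 CPM in MV+ and 1.22, 1.07 and 1.56 in RAG, 2.34-fold higher (log2 fold change 1.23 ± 0.19, adjusted p = 2.5e-05). Snord34 was at 2.06, 1.90 and 2.28 CPM in MV+ and 1.58, 1.23 and 1.51 in RAG (log2 fold change 0.52 ± 0.19, adjusted p = 0.0199), a call that was lost in DESeq2 and without MV+ replicate 3 or RAG replicate 2. Snord33 and Snord35a overlapped between the lines, with log2 fold changes of 0.43 ± 0.35 and 0.14 ± 0.25, and Snord33 was called without RAG replicate 3, at 0.95. Counts of Snord32a per count of Snord35a were 1.76, 2.06 and 1.34 in MV+ and 0.925, 0.875 and 0.684 in RAG, with no overlap. Per count of Snord34 they did not overlap either, at 1.62, 1.70 and 1.20 in MV+ and 0.771, 0.875 and 1.03 in RAG. Per count of Snord33 they overlapped, at 4, 3.09 and 2.09 in MV+ and 3.36, 1.40 and 1.34 in RAG.

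**Figure D4:**
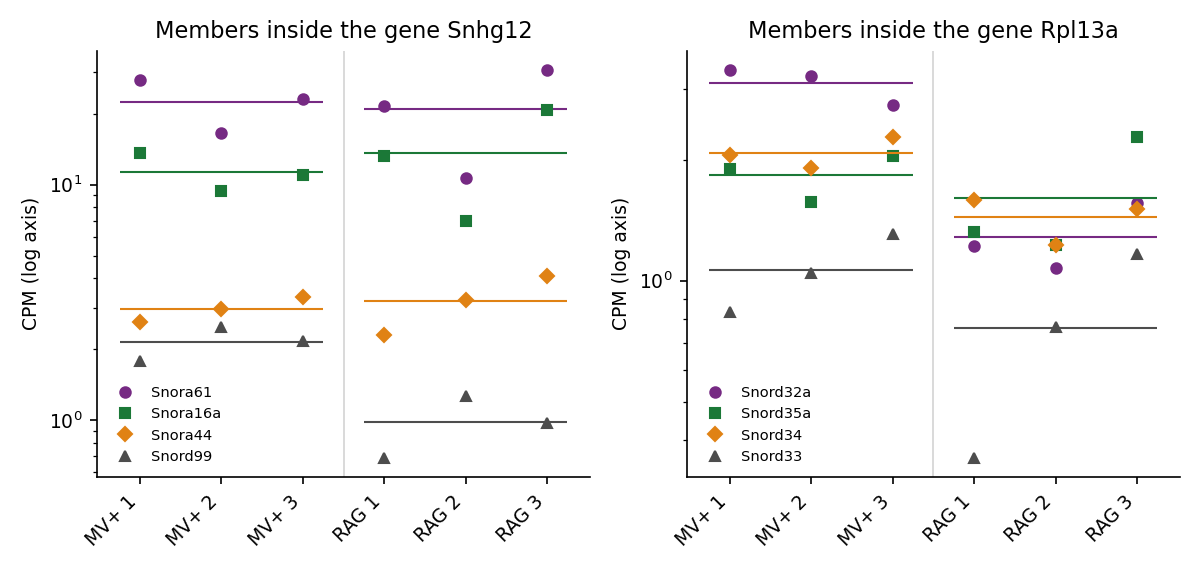
CPM (log axis) in each library of the members inside Snhg12 (left) and Rpl13a (right), with a horizontal line at the mean of each line's 3 libraries. Snord99 and Snord32a lie higher in every MV+ library than in every RAG library, while Snora61, Snora16a, Snora44, Snord33 and Snord35a overlap.

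Replicates of a line spread widely for these RNAs, which also had fewer counts than most genes. The median ratio of the highest to the lowest library within a line was 1.55 in MV+ and 1.83 in RAG over the 89 tested members, against 1.15 and 1.14 over all genes tested. The differences ran in parallel in the 2 lines. The log2 ratio of replicate 3 to replicate 1 in MV+ had a Pearson correlation of 0.62 (Spearman 0.57) with the same ratio in RAG over 89 members, where the value over 12062 genes was 0.17. These are descriptions across genes that share the same 6 libraries. The contrast of replicate 3 with replicate 1 was not planned. It uses the counts that make up the family shares, where replicate 3 was highest, and is no separate support for that pattern.

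Snora members had the highest median ratio of replicate 3 to replicate 1, 1.78 in MV+ and 1.62 in RAG. Snord members followed with 1.32 and 1.41, and Scarna members were close to 1 with 0.987 and 1.14. The ratio was above 2 in both lines for 10 members (11.2%, against 0.265% of all genes), Snord70, Snord11, Snora34, Snord66, Snora20, Snora64, Snord22, Snora15, Snord88c and Snord15b. Some of these rest on few counts, such as Snora20 with 2, 14 and 9 in MV+ and 6, 4 and 18 in RAG. Snord70 had 6, 16 and 17 counts in MV+ and 7, 14 and 22 in RAG. Members had fewer counts than most genes, so the 2 percentages are not at like depth. Decreases in both lines were not counted. Snora15 was at 3.17, 14.4 and 22.5 CPM in MV+ and 4.71, 10.6 and 17.1 in RAG. Snora64 was at 6.90, 18.4 and 33.6 CPM in MV+ and 3.20, 4.76 and 9.96 in RAG, and was called only with the block (adjusted p = 0.107 without and 5.27e-08 with). Snora15 was not called (log2 fold change 0.32 ± 0.83). Calls gained with the block were Snora21, Snora64, Snora17, Snora62, Snora70, Snord83b, Snord22, Snord17 and Snord15b, and 0 were lost. The share of all genes called rose as well, from 79.3% to 83%.

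**Figure D5:**
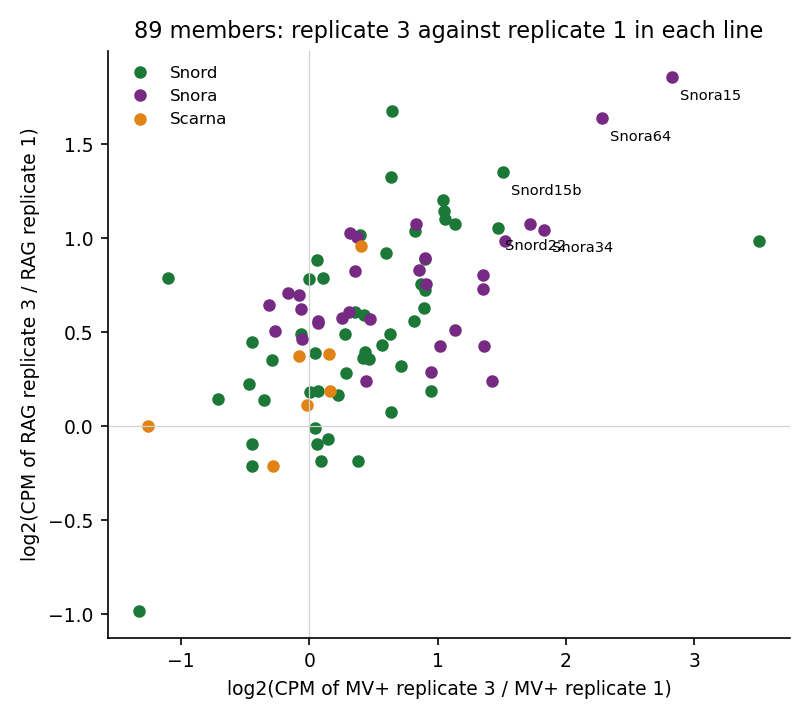
log2 ratio of CPM in replicate 3 to replicate 1 in MV+ (horizontal axis) and RAG (vertical axis) for 89 tested members, coloured by family. Most members lie above 0 on both axes, including Snora15 at 2.83 and 1.86 and Snora64 at 2.28 and 1.64. The point furthest to the right is Snord88a, at 3.50 in MV+ and 0.99 in RAG, which rests on 2, 37 and 31 counts in MV+. Scarna members run from -1.26 to 0.40 in MV+.

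The proteins that bind and process these RNAs were read from the same test. Of the 4 core proteins of C/D particles, Nop56 (log2 fold change 0.83 ± 0.07) and Nop58 (0.40 ± 0.07) were higher in MV+ and Nhp2l1, which binds the kink-turn of the RNA, was lower (-0.46 ± 0.09). Fbl, the methyltransferase fibrillarin, was at 24.4, 15.8 and 16.2 CPM in MV+ and 20.1, 15.8 and 12.5 in RAG and was called only with the block (adjusted p = 0.434 without and 0.0264 with). Nop56 and Nop58 are themselves hosts of box C/D members. Of the 4 core proteins of H/ACA particles, Dkc1, the pseudouridine synthase dyskerin (0.26 ± 0.07), and Nop10 (0.29 ± 0.07) were higher. Nhp2 was not called, and Gar1 was called only with the block (0.45 ± 0.22, adjusted p = 0.107 without and 3.59e-05 with).

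Among 13 factors listed for particle assembly, 2 were higher and 6 lower in MV+, where the background was 40.4% higher and 38.9% lower here and in the lists that follow. Znhit6, a box C/D assembly factor, was higher by 1.28 ± 0.12, and Rpap3, a subunit of the R2TP chaperone complex, was lower (-0.79 ± 0.09). The list includes Zfp593, 1810008A18Rik (Fam207a) and Nop14, which act in ribosome biogenesis rather than in particle assembly, and the first 2 of these were among those lower. Nop14, Znhit3 and Nolc1 were called only with the block (adjusted p = 0.0281, 0.0176 and 0.000229 with it). Of 10 tested Cajal body and cap factors, 5 were higher and 4 lower, close to the background. Wrap53, which binds the Cajal body signal of Scarna RNAs, was higher (0.87 ± 0.08), as was the cap hypermethylase gene Tgs1 (0.99 ± 0.09). Coil, the Cajal body scaffold coilin, was not called (-0.14 ± 0.08).

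Of 15 genes of end processing and decay, 8 were higher and 3 lower, against 79.3% of all genes called in either direction. The largest increases were in Rbm7, a subunit of the nuclear exosome targeting complex (1.85 ± 0.08), Zcchc7, of the nucleolar polyadenylation complex (1.29 ± 0.09), and Exosc10, the nuclear exosome nuclease (1.05 ± 0.08). Papd7, a poly(A) polymerase, was lower (-0.70 ± 0.07). Xrn1 and Xrn2 were called only with the block (adjusted p = 0.0182 and 0.00548 with it). Of 16 tested long non-coding hosts 12 were higher and 0 lower, as in DESeq2 and at an unadjusted p under 0.05, led by Snhg9 (1.37 ± 0.15), Snhg5 (1.15 ± 0.08) and Snhg1 (1.08 ± 0.09). Median log2 fold changes were 0.31 for C/D core proteins, 0.27 for H/ACA core proteins, -0.24 for assembly factors, 0.15 for Cajal body and cap factors, 0.28 for processing and decay genes and 0.77 for long non-coding hosts, against 0.03 for all genes.

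Other structured RNAs and microRNA rows were read as comparators. Of 9 tested genes for other structured RNAs, 0 were higher and 4 lower in MV+, namely Rnu11 of the minor spliceosome (log2 fold change -1.07 ± 0.35), Terc, the telomerase RNA, which ends in an H/ACA domain (-0.70 ± 0.16), Rprl3 (-0.47 ± 0.17) and Rmrp, the RNA of RNase MRP (-0.33 ± 0.13). The number was 1 when counts were scaled to library totals alone, when no filter was used, or without MV+ replicate 1 or 2. No gene of this list was higher in DESeq2 or at an unadjusted p under 0.05. Terc had 242, 286 and 300 counts in MV+ and 529, 481 and 1175 in RAG. MicroRNA rows, which are of like annotated length, took 587, 526 and 552 of every 1000000 assigned counts in MV+ and 634, 671 and 531 in RAG, and 13 of 32 tested were higher and 4 lower, against 40.4% and 38.9% of all genes.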

How the data were processed

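Total RNA from 3 flasks of each line was column purified, depleted of ribosomal RNA, size selected with beads and sequenced as 50 nt single reads with a kit not described as stranded; recovery of short RNA by these steps was not measured. Per the file headers, the authors aligned reads to mm9 (TopHat2) and made the deposited raw counts with featureCounts 1.5.0-p3 at default settings, leaving out reads with several alignments or several overlapping genes. The deposited FPKM values were the authors' counts scaled by length and library total. Here counts were tested with edgeR 4.0.16 (quasi-likelihood, robust, TMM, filterByExpr, two-sided, R 4.3.3) over all 12965 genes that passed, called at an adjusted p under 0.05, without a block. CPM uses TMM-scaled library sizes. Errors of log2 fold changes are SE, derived as the absolute log2 fold change over the square root of the quasi-likelihood F. A floor of 3 counts in a library was 0.0697 to 0.167 CPM and covers counting error only. Alternatives were other scalings and filters, DESeq2 1.42.0, the replicate block, Rn45s left out, and each library left out.

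Replicate numbers r1 to r3 recur in both lines in the labels, and same-numbered libraries deviated together (r of deviations from line means 0.22, 0.14 and 0.13). All other pairings were below 0, but deviations within a line sum to 0, so these values are no further support for a pairing. Given the shared numbers, blocked values stand beside named members and core proteins whose call they change. Counts over hosts and gene lists are without the block. Members and gene lists were chosen with earlier results of these data known. Named members were the 10 most counted, up to 10 past 2-fold in each direction, all tested Scarna rows, Snord22, and members of hosts with at least 4 counted members. Of the other genes, the core proteins, up to 3 called per list and direction, hosts of named members and Pax6 could be named. Sequences come from the NCBIM37 (mm9) genome at GENCODE M1 intervals. The test was checked on simulated data that held no replicate effect, so the check does not cover the replicate spread of the members. The result of 1 member is not reported here.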

Additional observations from a re-analysis of the deposited data

How the results depend on the processing

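For the named members, 426 log2 fold changes under alternative settings kept their direction and their side of the threshold, 9 lost the call, 16 gained it and 7 changed sign. Members higher in MV+ numbered 28, and 26 to 33 under the other scalings, filters, DESeq2 and without Rn45s, 37 with the replicate block, and 20 to 43 when single libraries were left out. Members lower numbered 4, with 3 to 5 under the other settings and 4 to 6 with a library left out. Those more than 2-fold lower (2) numbered 1 with a minimum of 1 CPM, where fewer genes are tested, and 2 to 4 with a library left out. Library totals alone moved the log2 fold change of all genes up by a median of 0.18, and with them 5 hosts (10) and 9 particle and processing genes (14) were lower. MicroRNA rows higher (13) numbered 36 with no filter, 6 with a minimum of 1 CPM and 20 in DESeq2, and those lower (4) numbered 8 and 2 with the first 2 of these. Other structured RNAs lower (4) numbered 1 with library totals or no filter, 2 with the upper quartile and 1 to 5 with a library left out, while those higher (0) numbered 0 to 1. The causes were not tested. 

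Signs reversed, none of them for a called member, on the log2 scale, with library totals for Scarna6 (0.0682) and Snora44 (0.0527). With a library left out they reversed for Snora16a (-0.60 to 0.14), Snora44 (-0.31 to 0.12), Snora61 (-0.23 to 0.45) and Snord35a (-0.0121 to 0.52). Without members over 200 bases the mean Snord share was 661 per 1000000 assigned counts in MV+ and 360.4 in RAG, and the Scarna share 119 and 58.0. Without Rn45s in the total the Scarna share in MV+ was 263. With a library left out, r of member and host was 0.48 to 0.53, and their median difference -0.18 to 0.24. Without the pairs of Rps2 and Rps3a, a choice made after seeing the data, r was 0.58 and Spearman's rho 0.38. With the pairing of replicate numbers as a block, the calls of the named members Snord17, Snord22 and Snord15b changed, and those of the others did not.

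The SE of a tested member rested on 3 flasks a line, and 14 members with a count were not tested.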
